A study of Mus musculus with 12 samples.

Results

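A set of kinase genes, several of which are known to be switched on when cells are stimulated, and the pseudokinase gene *Trib1* were followed in the striatum of hemiparkinsonian mice given L-DOPA. The 9 genes are *Sik1*, *Sik2*, *Sik3*, *Plk2*, *Plk3*, *Pim1*, *Pim3*, *Trib1* and *Nuak1*, chosen by symbol among the 52169 gene symbols of the deposited transcript table. They carry 64 of its 189364 transcripts that have a symbol, and each gene is represented by its transcript with the highest mean level over all libraries. All mice were female C57BL/6J, with no age given in the sources used here. They received 6-OHDA (3 µg/µl, 1 µl) into the medial forebrain bundle of the right hemisphere, after 25 mg/kg desipramine to spare noradrenergic neurons, and recovered for 2 weeks. 6-OHDA kills dopamine neurons, so that the striatum of that side loses its dopamine input while the other side keeps it. The mice were then injected with L-DOPA (10 mg/kg) and benserazide (7.5 mg/kg), either on 1 day (acute) or daily for 9 days (chronic), and the striatum was punched out 1 hour after the last injection. The 4 groups are the acute unlesioned, acute lesioned, chronic unlesioned and chronic lesioned striatum, with 3 RNA-seq libraries each. Every group had received L-DOPA, so the effect of the drug itself cannot be told apart from the state before it, and the acute and chronic mice differ in the number of injections and in the days since surgery.

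The salt-inducible kinases (SIK) and NUAK1 belong to the AMPK-related kinases and are switched on by the kinase LKB1. Phosphorylation of SIK proteins by PKA, the kinase that dopamine D1 receptors activate through cAMP, blocks them and lets the CRTC coactivators of CREB enter the nucleus. *Sik1* is itself a CREB target, so that its product can restrain the signal that induced it, whereas *Sik2* and *Sik3* are mostly regulated as proteins. PLK2 and PLK3 are stress- and activity-induced relatives of the mitotic kinase PLK1, and in neurons PLK2 takes part in the scaling down of synapses. The PIM kinases need no activating phosphorylation and are controlled mainly by how much of them is made. TRIB1 is a pseudokinase that brings substrates such as C/EBP transcription factors to the ubiquitin ligase COP1.

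Counts over all transcripts came to 87695043 to 173116525 per library, where a read is counted on every transcript that it overlaps. Levels are in CPM, the counts of a transcript relative to the TMM-normalized total of its library. Groups were compared with edgeR's quasi-likelihood test on all transcripts that passed a filter on low counts, and a gene was called higher or lower at a Benjamini-Hochberg adjusted p under 0.05. Every member passed the filter, with 63 counts at least in each library. Nothing in the labels says how far the libraries of a group are independent beyond 3 mice per condition, so the p-values measure the spread between these libraries. In bulk tissue, fewer cells of a type and less RNA per cell cannot be told apart. All 8 medium spiny neuron markers were detected in every library, with summed levels of 1495 to 2067 CPM. On the lesioned side 4 of them were higher and 3 lower after acute L-DOPA, and 2 higher and 1 lower after chronic L-DOPA. The D1 receptor gene *Drd1a* was lower after both (66.6 ± 3.5 against 13.5 ± 2.0 CPM acute and 70.1 ± 5.4 against 28.0 ± 5.4 CPM chronic, SD, n = 3), while the neuropeptide genes *Tac1* (0.89 and 0.64 on the log2 scale) and *Penk* (0.94 and 1.12) were higher after both. The astrocyte marker *Gfap* was higher on the lesioned side as well, with 16.3 ± 1.2 and 38.6 ± 11 CPM (acute) and 14.1 ± 4.8 and 54.8 ± 15 CPM (chronic). Of the 5 astrocyte markers 2 were higher after acute and 1 after chronic L-DOPA, and of the 6 microglia markers 2 were higher after acute L-DOPA. All 6 oligodendrocyte markers had positive log2 fold changes after acute L-DOPA (0.25 to 0.37), of which 1 was called, with summed levels of 2089 to 2326 CPM on the unlesioned and 2114 to 3496 CPM on the lesioned side. After chronic L-DOPA all 6 were negative (-0.35 to -0.06) and none was called (edgeR, none at an unadjusted p under 0.05 either). The part of glial cells in the differences of the members between the sides was not tested. The summed level of 7 cortical neuron markers was 14.1 to 32.5 CPM in acute unlesioned and 2.12 to 17.2 CPM in acute lesioned libraries. It was 6.82 to 44.3 CPM in chronic unlesioned and 1.92 to 24.1 CPM in chronic lesioned libraries. All 7 had negative log2 fold changes after both treatments, with medians of -1.35 (acute) and -1.63 (chronic). Of them 2 were called lower after acute and none after chronic L-DOPA. In each lesioned group replicate 1 stood far above the others. Leaving out lesioned replicate 1 of either treatment removes the lesioned library nearest the unlesioned ones in these markers. That widens the cortical difference between the sides, so it cannot test the part of cortical tissue. In those fits no call of a member between the sides changed but those of *Nuak1*, which are given with that gene. The part of cortical tissue in the results was not tested.

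After acute L-DOPA, 6 of the 9 genes were higher and 2 were lower on the lesioned side, against a background of 12.9% of all 129674 transcripts tested (6.85% higher and 6.02% lower), or 15.4% of genes when a single transcript of each is tested. Without acute unlesioned replicate 1 or acute lesioned replicate 2 the number called fell from 8 to 5, with *Sik2*, *Trib1* and *Nuak1* lost, and with each library left out in turn 9543 (without acute unlesioned replicate 3) to 15329 transcripts were called in place of 16684. The groups did not overlap for 8 of the 9, against 32.6% of all transcripts. After chronic L-DOPA, 6 of the 9 were higher and 1 was lower, where 12% of 127063 transcripts (7.71% higher and 4.33% lower) and 13.5% of genes were called, and the groups did not overlap for 8 of the 9, against 30.8% of transcripts. With each library left out in turn, 6 or 7 members and 9137 (without chronic unlesioned replicate 3) to 14863 transcripts were called, in place of 7 and 15295. The median log2 fold change of the 9 genes was 0.88 after acute and 0.93 after chronic L-DOPA, beside 0.01 and -0.02 over all transcripts tested. The same 6 genes, *Sik1*, *Plk2*, *Plk3*, *Pim1*, *Pim3* and *Trib1*, were higher after both treatments. These shares describe genes that were chosen with earlier results of these data in view.

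**Figure D1:**
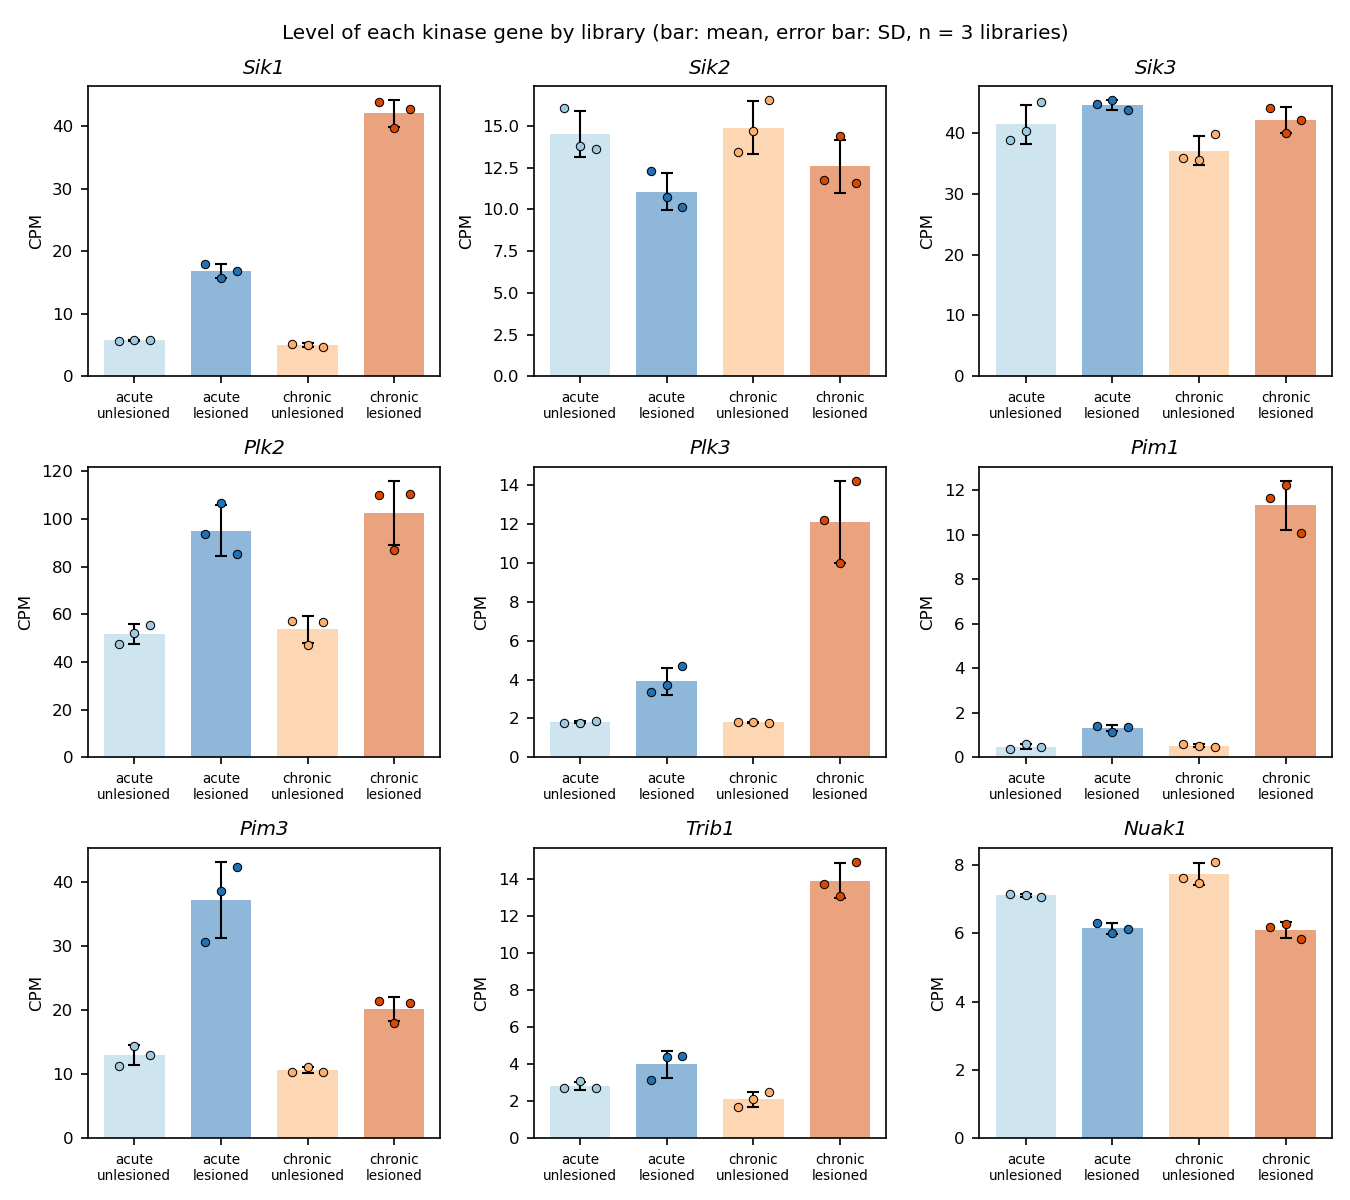
Level of each kinase gene in CPM (vertical axes, linear, from 0) in the 12 libraries of the 4 groups; bars are means of 3 libraries, error bars are SD and points are libraries. *Sik1*, *Plk3*, *Pim1* and *Trib1* stand highest in the chronic lesioned striatum, *Pim3* in the acute lesioned striatum, and *Plk2* at about the same height on the lesioned side after both treatments.

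*Sik1*, on chromosome 17 of mm9 from 31981195 to 31992737 on the minus strand, had 5.70, 5.86 and 5.73 CPM in the acute unlesioned libraries and 17.9, 15.7 and 16.8 CPM in the acute lesioned libraries. In the chronic mice it had 5.24, 5.08 and 4.73 CPM on the unlesioned side and 43.8, 39.6 and 42.7 CPM on the lesioned side. The libraries of each group lay close together and both lesioned groups stood clear of both unlesioned groups. On the lesioned side *Sik1* was higher by a log2 fold change of 1.55 (SE 0.07, a fold of 2.93 with a 95% interval of 2.64 to 3.24) after acute L-DOPA, with an adjusted p of 2.00e-08 from edgeR's quasi-likelihood test (Benjamini-Hochberg). After chronic L-DOPA the log2 fold change was 3.07 (SE 0.09, a fold of 8.39 with an interval of 7.35 to 9.57), with an adjusted p of 1.28e-08 from the same edgeR test. Between the lesioned groups, *Sik1* was 2.50 times as high after chronic as after acute L-DOPA (adjusted p = 2.34e-06, edgeR), whereas the unlesioned groups differed by -0.20 on the log2 scale, which was not called (adjusted p = 0.151, edgeR).

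*Sik2* moved the other way. Its representative model, on chromosome 9 from 50699406 to 50806741 on the minus strand, stops short of the RefSeq start at 50817178. *Sik2* had 16.1, 13.8 and 13.6 CPM in the acute unlesioned and 12.3, 10.7 and 10.1 CPM in the acute lesioned libraries, so the groups did not overlap. The log2 fold change was -0.39 (SE 0.09), with an adjusted p of 0.0133 from edgeR's quasi-likelihood test (Benjamini-Hochberg). Without acute unlesioned replicate 1 or acute lesioned replicate 2 the adjusted p of the edgeR test was 0.0579 and 0.0568, and with counts summed over all transcripts of the gene it was 0.0719. The RefSeq transcript had a log2 fold change of -0.33 (adjusted p = 0.0262, edgeR). In the chronic mice *Sik2* had 13.4, 14.7 and 16.6 CPM on the unlesioned and 11.8, 14.4 and 11.6 CPM on the lesioned side. The groups overlap, although the lesioned library was the lower one in each same-numbered pair. That difference of -0.24 (95% interval -0.49 to 0.00) was not called (adjusted p = 0.193, edgeR), nor was it with the replicate number as a block (0.0680). The representative transcript of *Sik2* overlaps *Ppp2r1b* on the opposite strand, and whether the counting used the strand is not given in the sources used here.

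*Sik3*, on chromosome 9 from 45820903 to 46032277 on the plus strand, had 38.8, 40.3 and 45.0 CPM in the acute unlesioned and 44.8, 45.3 and 43.7 CPM in the acute lesioned libraries. After chronic L-DOPA it had 35.9, 35.5 and 39.8 CPM on the unlesioned and 44.1, 39.9 and 42.1 CPM on the lesioned side. The acute groups overlapped and the chronic groups touched without overlapping. Neither difference was called, with log2 fold changes of 0.11 (95% interval -0.03 to 0.25) and 0.18 (0.0023 to 0.36), and adjusted p of 0.274 and 0.187 from edgeR's quasi-likelihood test (Benjamini-Hochberg). The unadjusted p of the chronic difference was 0.0477 by the same edgeR test. The interval after chronic L-DOPA leaves room for a fold of up to 1.29, and blocking on the replicate number gave an adjusted p of 0.0611 (edgeR).

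*Nuak1*, on chromosome 10 from 83833650 to 83903342 on the minus strand, had the narrowest spread of the 9 genes in the acute unlesioned group. It had 7.16, 7.12 and 7.06 CPM there and 6.31, 6.00 and 6.13 CPM in the acute lesioned libraries. After chronic L-DOPA it had 7.63, 7.48 and 8.10 CPM on the unlesioned and 6.19, 6.26 and 5.83 CPM on the lesioned side. All 6 lesioned libraries lay under all 6 unlesioned libraries. The log2 fold changes were -0.21 (SE 0.06, adjusted p = 0.0478) and -0.34 (SE 0.08, adjusted p = 0.0212) by edgeR's quasi-likelihood test (Benjamini-Hochberg). The acute call was lost whichever library was left out, with adjusted p of 0.0588 (without acute lesioned replicate 1) to 0.142 by edgeR, and in 5 other settings including DESeq2. The chronic call was lost without replicate 1 or 3 of either chronic group, with adjusted p of 0.0618 to 0.0886 by edgeR.

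The sequence around the start of *Plk2*, *Plk3*, *Pim3* and *Pim1* is shown because these genes, all higher on the lesioned side, differ in whether it holds motifs of activity-regulated factors. The RefSeq promoter table (GRCm38.p6) covers 250 bases before to 50 bases after the gene start and held 7 of the 9 genes, without *Sik1* and *Trib1*. Each sequence was found once in mm9, with no mismatch, at the coordinates given here. Capitals mark matches on either strand to TGACGTCA, the cAMP response element (CRE) that CREB binds, to its core TGACG, which also lies inside it, and to GCGNGGGCG, the site of EGR factors. The windows are shown 5′ to 3′ along the gene, and lie at chr13:111185002-111185301 (plus strand) for *Plk2*, chr4:116806519-116806818 (minus strand) for *Plk3*, chr15:88692374-88692673 (plus strand) for *Pim3*, chr17:29627480-29627779 (plus strand) for *Pim1* and chr9:45820653-45820952 (plus strand) for *Sik3*, which was added as a gene that was not called.

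*Plk2*: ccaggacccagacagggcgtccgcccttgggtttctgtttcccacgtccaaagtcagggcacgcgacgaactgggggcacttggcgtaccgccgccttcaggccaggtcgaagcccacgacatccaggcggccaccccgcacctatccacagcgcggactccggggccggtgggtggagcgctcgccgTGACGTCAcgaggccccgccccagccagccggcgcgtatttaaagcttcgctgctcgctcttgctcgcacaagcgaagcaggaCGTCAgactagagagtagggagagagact

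*Plk3*: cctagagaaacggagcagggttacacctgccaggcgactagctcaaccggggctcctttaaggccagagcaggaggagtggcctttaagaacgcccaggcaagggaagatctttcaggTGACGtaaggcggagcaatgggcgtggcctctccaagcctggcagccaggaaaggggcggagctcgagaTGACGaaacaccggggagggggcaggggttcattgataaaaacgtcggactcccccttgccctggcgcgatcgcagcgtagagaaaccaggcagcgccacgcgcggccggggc

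*Pim3*: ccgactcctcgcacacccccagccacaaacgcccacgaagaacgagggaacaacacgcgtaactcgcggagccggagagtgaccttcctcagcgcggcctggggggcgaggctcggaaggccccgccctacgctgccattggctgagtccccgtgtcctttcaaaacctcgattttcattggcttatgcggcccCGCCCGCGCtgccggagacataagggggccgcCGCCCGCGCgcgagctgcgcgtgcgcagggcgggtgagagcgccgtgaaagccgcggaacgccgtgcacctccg

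*Pim1*: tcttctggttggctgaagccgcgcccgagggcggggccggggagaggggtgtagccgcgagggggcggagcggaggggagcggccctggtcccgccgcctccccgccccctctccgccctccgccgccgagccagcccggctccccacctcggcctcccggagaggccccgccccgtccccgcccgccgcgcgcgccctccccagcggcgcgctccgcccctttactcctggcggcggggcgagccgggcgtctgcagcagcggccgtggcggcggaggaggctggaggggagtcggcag

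*Sik3*: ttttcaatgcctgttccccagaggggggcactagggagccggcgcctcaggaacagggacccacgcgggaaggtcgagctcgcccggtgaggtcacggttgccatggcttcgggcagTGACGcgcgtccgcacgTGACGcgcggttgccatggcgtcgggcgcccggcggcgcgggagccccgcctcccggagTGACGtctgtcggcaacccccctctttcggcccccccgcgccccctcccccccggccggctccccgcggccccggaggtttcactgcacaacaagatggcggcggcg

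With the gene start as position 0, *Plk2* holds the full CRE at -62 and a further TGACG core on the reverse strand at 21. *Plk3* holds the core at -132 and -63, and *Pim3* holds the EGR site on the reverse strand at -56 and -24. The window of *Pim1*, and a second one further into the gene that is not shown, hold none of these letters. *Sik3* holds the core 3 times, at -133, -116 and -57, although it was not called after either treatment. Over all 32851 promoters of the table, 1.79% hold the full CRE, 20.8% the core and 5.55% the EGR site. Of the 7 genes, 1 holds the full CRE, 4 the core (*Plk2*, *Plk3*, *Sik2* and *Sik3*) and 3 the EGR site (*Pim3*, *Sik2* and *Nuak1*). The AP-1 motif TGANTCA, found in 7.81% of promoters, is not among the letters of any of these windows. A match describes letters in this window and shows neither binding nor use of a site.

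*Plk2*, on chromosome 13 from 111185252 to 111191052 on the plus strand, was the most abundant of the 9 genes per length. It had 47.4, 52.2 and 55.6 CPM in the acute unlesioned and 93.6, 106.5 and 85.3 CPM in the acute lesioned libraries. After chronic L-DOPA it had 57.2, 47.2 and 56.9 CPM on the unlesioned and 110.1, 87.2 and 110.7 CPM on the lesioned side. The lesioned libraries of both treatments lay in overlapping ranges, clear of all unlesioned ones. The log2 fold change was 0.88 (SE 0.08, adjusted p = 3.37e-05) after acute and 0.93 (SE 0.11, adjusted p = 0.000433) after chronic L-DOPA by edgeR's quasi-likelihood test (Benjamini-Hochberg), folds of 1.84 and 1.91. The lesioned groups differed by 0.11 (95% interval -0.13 to 0.35), which was not called (adjusted p = 0.504, edgeR).

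*Plk3*, on chromosome 4 from 116801260 to 116806549 on the minus strand, was far less abundant than *Plk2* and changed more. It had 1.75, 1.79 and 1.87 CPM in the acute unlesioned and 3.34, 3.72 and 4.69 CPM in the acute lesioned libraries. In the chronic mice it had 1.84, 1.79 and 1.75 CPM on the unlesioned and 12.2, 9.99 and 14.2 CPM on the lesioned side. The 6 unlesioned libraries were nearly alike, and the lesioned libraries of the chronic group lay above all acute ones. The log2 fold change was 1.12 (SE 0.12, a fold of 2.18, adjusted p = 8.72e-05) after acute and 2.76 (SE 0.13, a fold of 6.75, adjusted p = 3.40e-07) after chronic L-DOPA by edgeR's quasi-likelihood test (Benjamini-Hochberg). It overlaps the little expressed gene *Tctex1d4* on the opposite strand.

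*Pim1*, on chromosome 17 from 29627757 to 29632390 on the plus strand, had the largest change of the 9 genes after chronic L-DOPA. It had 0.365, 0.598 and 0.472 CPM in the acute unlesioned libraries, from 64, 83 and 63 counts, and 1.41, 1.15 and 1.36 CPM in the acute lesioned libraries, from 186, 99 and 146 counts. With chronic treatment it had 0.608, 0.526 and 0.450 CPM on the unlesioned and 11.6, 12.2 and 10.1 CPM on the lesioned side, the latter from 1023, 1321 and 1107 counts. Every chronic lesioned library thus exceeded every other library many times over. The log2 fold change was 1.47 (SE 0.17, a fold of 2.78 with a 95% interval of 2.14 to 3.61, adjusted p = 0.000189) after acute and 4.43 (SE 0.13, a fold of 21.6 with an interval of 17.6 to 26.6, adjusted p = 1.86e-08) after chronic L-DOPA by edgeR's quasi-likelihood test (Benjamini-Hochberg). Its acute fold has the largest standard error among the 9 genes in these comparisons of the sides.

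*Pim3*, on chromosome 15 from 88692624 to 88696156 on the plus strand, was the member with the opposite order of treatments. It had 11.3, 14.4 and 13.0 CPM in the acute unlesioned and 30.7, 38.5 and 42.3 CPM in the acute lesioned libraries. After chronic L-DOPA it had 10.4, 11.1 and 10.3 CPM on the unlesioned and 21.4, 17.9 and 21.1 CPM on the lesioned side. The chronic lesioned libraries lay between the unlesioned and the acute lesioned ones, with no overlap. The log2 fold change was 1.53 (SE 0.11, a fold of 2.88, adjusted p = 3.44e-06) after acute and 0.93 (SE 0.09, a fold of 1.90, adjusted p = 7.66e-05) after chronic L-DOPA by edgeR's quasi-likelihood test (Benjamini-Hochberg).

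*Trib1*, on chromosome 15 from 59479905 to 59488105 on the plus strand, had 2.69, 3.07 and 2.71 CPM in the acute unlesioned and 3.16, 4.39 and 4.45 CPM in the acute lesioned libraries. In the chronic mice it had 1.69, 2.11 and 2.47 CPM on the unlesioned and 13.7, 13.0 and 14.9 CPM on the lesioned side. The acute groups only just failed to overlap, since lesioned replicate 1 lay close to the highest unlesioned library, whereas the chronic groups were far apart. The log2 fold change was 0.50 (SE 0.12, adjusted p = 0.0214) after acute and 2.72 (SE 0.13, a fold of 6.60, adjusted p = 3.40e-07) after chronic L-DOPA by edgeR's quasi-likelihood test (Benjamini-Hochberg). The acute call was lost without acute unlesioned replicate 1 or 3 or acute lesioned replicate 2 or 3, with adjusted p of 0.0644 to 0.0933 by edgeR.

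**Figure D2:**
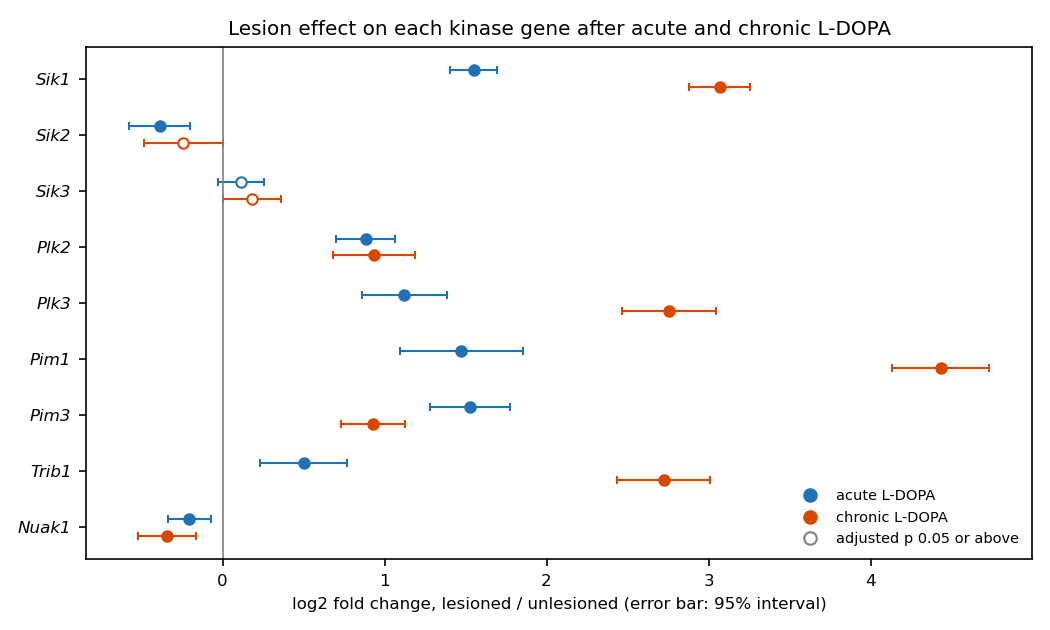
Log2 fold change of the lesioned over the unlesioned striatum (horizontal axis) for each kinase gene after acute (blue) and chronic (orange) L-DOPA; bars are 95% intervals from the edgeR fit and open points have an adjusted p of 0.05 or above. *Pim1* moves from 1.47 to 4.43 and *Trib1* from 0.50 to 2.72, while *Plk2* stays at 0.88 and 0.93.

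Whether the difference between the sides itself changed with repeated injections was tested as an interaction on all 12 libraries, in which 4.52% of 130867 transcripts were called (3.22% higher and 1.3% lower), and 5.1% of genes. It was called for 5 of the 9 genes, 4 of them with a larger effect after chronic L-DOPA and 1 with a smaller effect. The log2 difference of the 2 effects was 2.96 (SE 0.23) for *Pim1*, 2.22 (SE 0.19) for *Trib1*, 1.64 (SE 0.19) for *Plk3* and 1.52 (SE 0.10) for *Sik1*, with adjusted p of 2.12e-06, 6.61e-06, 0.000115 and 3.62e-07 from edgeR's quasi-likelihood test (Benjamini-Hochberg). For *Pim3* it was -0.60 (SE 0.16, adjusted p = 0.0478, edgeR), and this call was fragile. It was lost when any library but acute unlesioned replicate 2 or acute lesioned replicate 1 was left out, with adjusted p of 0.0711 to 0.128 by edgeR, and with 3 of the other settings, at 0.0503 to 0.0731. With the replicate number as a block the adjusted p of *Pim3* was 0.00317 by edgeR. For *Plk2* the difference of the effects was 0.05 with a 95% interval of -0.27 to 0.38, which is a ratio of the folds of 0.827 to 1.30. The differences of *Sik2* (0.15, -0.17 to 0.47), *Sik3* (0.07, -0.15 to 0.29) and *Nuak1* (-0.13, -0.33 to 0.06) were not called either. Of the 8 medium spiny neuron markers 1 was called in the same interaction, *Drd1a* (0.98, SE 0.18, adjusted p = 0.00507, edgeR), and its part in the result was not tested.

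Between the lesioned groups, 5 of the 9 genes were called, where 23.3% of 127463 transcripts (12.1% higher and 11.2% lower) and 24.8% of genes were, and their groups did not overlap, against 40.3% of transcripts. *Pim1* was 8.61 times, *Trib1* 3.49 times, *Plk3* 3.10 times and *Sik1* 2.50 times as high after chronic as after acute L-DOPA, and *Pim3* was 0.542 times as high, with adjusted p of 9.95e-08, 5.55e-06, 4.52e-05, 2.34e-06 and 0.000546 from edgeR's quasi-likelihood test (Benjamini-Hochberg). These 5 calls held when any library was left out. Markers of other cells and of neurons moved in the same comparison. All 6 oligodendrocyte markers and 4 of 6 microglia markers were lower in the chronic lesioned group, with summed levels of 2114 to 3496 CPM (acute) and 1162 to 2099 CPM (chronic) for the former and 62.9 to 74.7 and 42.1 to 52.3 CPM for the latter. Also lower were 2 of 5 astrocyte markers, 2 of 3 blood markers (summed level 4.44 to 8.58 CPM acute and 1.57 to 3.03 CPM chronic) and the neuronal markers *Drd2* (-0.46) and *Adora2a* (-0.60). *Drd1a* (1.06) and 1 of 5 endothelium markers were higher. The part of all these markers in the result was not tested.

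Between the unlesioned groups, none of the 9 genes was called by edgeR's test, where 2.61% of 129187 transcripts (0.969% higher and 1.64% lower) and 2.68% of genes were, and none by DESeq2. At an unadjusted p under 0.05 there were 3, *Trib1* (-0.42, adjusted p = 0.0995), *Pim3* (-0.29, adjusted p = 0.106) and *Sik1* (-0.20, adjusted p = 0.151) by edgeR's quasi-likelihood test (Benjamini-Hochberg), all lower after chronic L-DOPA. For 4 of the 9 the groups did not overlap, against 26.2% of transcripts. Without chronic unlesioned replicate 2 the difference of *Pim3* was called (-0.33, adjusted p = 0.0441, edgeR). The number of transcripts called in this comparison, 3370, went to 66 without acute unlesioned replicate 2 and to 14377 without chronic unlesioned replicate 2. In the chronic group 2 of 6 microglia markers (summed level 57.0 to 59.6 CPM acute and 40.5 to 51.7 CPM chronic), 1 of 5 astrocyte markers and *Drd2* (-0.33) were lower and 1 of 5 endothelium markers was higher, and their part in the differences of the members was not tested.

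Set per kilobase of transcript, so that genes can be compared, the order of the levels differed between the groups. In the acute unlesioned striatum *Plk2* led with 18.5 ± 1.5 CPM per kb (SD, n = 3), followed by *Sik3* (6.58 ± 0.52), *Pim3* (5.35 ± 0.64), *Sik2* (2.17 ± 0.21), *Nuak1* (1.28 ± 0.0090), *Sik1* (1.28 ± 0.019), *Trib1* (0.746 ± 0.056), *Plk3* (0.717 ± 0.023) and *Pim1* (0.242 ± 0.059). Only *Nuak1* and *Sik1*, and *Trib1* and *Plk3*, overlapped with their neighbour in that order. In the chronic lesioned striatum *Plk2* led with 36.6 ± 4.8 CPM per kb, and *Sik1* stood next with 9.32 ± 0.48, overlapping with *Pim3* at 8.33 ± 0.80. *Sik3* (6.69 ± 0.34) came before *Pim1* (5.74 ± 0.56) and *Plk3* (4.83 ± 0.84), which overlapped with each other, then *Trib1* (3.67 ± 0.25), *Sik2* (1.88 ± 0.24) and *Nuak1* (1.10 ± 0.042). *Pim1* was last in the other 3 groups, with 0.662 ± 0.071 CPM per kb in the acute lesioned striatum, and *Sik1* was the sixth in both unlesioned groups and the fourth in the acute lesioned striatum (3.73 ± 0.25).

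The shares of the members within their sums differed between the chronic sides, and those of the *Sik* genes between the acute sides as well. The sums hold members alone, without relatives such as *Pim2* and *Plk5*, so the shares are not those of a whole family. Of the summed level per kilobase of the 3 *Sik* genes, *Sik1* held 12.8% ± 0.58 in the acute unlesioned and 29.9% ± 1.3 in the acute lesioned striatum (SD, n = 3). On the chronic sides it held 12.1% ± 1.3 and 52.1% ± 1.1, while *Sik3* went from 63.8% ± 0.73 to 37.4% ± 0.64. *Pim1* held 4.30% ± 0.52 and 4.21% ± 0.98 of the *Pim1* and *Pim3* sum on the acute sides, and 5.75% ± 0.84 and 40.8% ± 4.3 on the chronic sides. The sum itself was 16.03 ± 2.4 CPM per kb on the acute lesioned and 14.1 ± 0.61 on the chronic lesioned side. *Plk3* held 3.75% ± 0.19 and 4.45% ± 1.14 of the *Plk2* and *Plk3* sum on the acute sides, and 3.62% ± 0.40 and 11.6% ± 0.80 on the chronic sides. The shares of *Sik1* and *Pim1* on the chronic lesioned side lay above those of every other library, and the acute shares of *Pim1* and of *Plk3* overlapped between the sides.

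**Figure D3:**
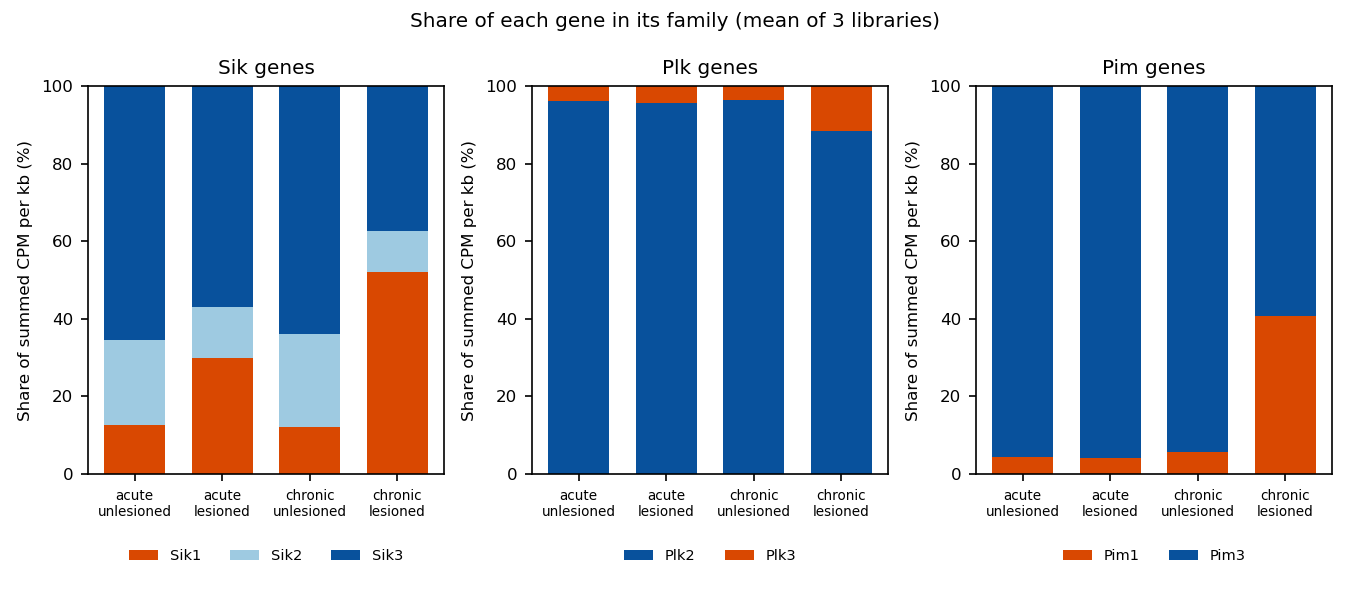
Share (vertical axis, %) of each gene in the summed CPM per kb of the *Sik* genes, of *Plk2* and *Plk3*, and of *Pim1* and *Pim3*, as the mean of 3 libraries in each of the 4 groups. *Sik1* reaches 52.1% and *Pim1* 40.8% in the chronic lesioned striatum.

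The transcripts of a gene share reads and are not independent, and they were used to see whether its models move alike. All 6 transcripts of *Sik1*, 6 of *Plk2*, 6 of *Plk3* and 4 of *Pim3* were higher on the lesioned side after both treatments. The 6 better covered transcripts of *Pim1* were higher on the lesioned side after both treatments, with log2 fold changes of 4.43 to 4.47 after chronic L-DOPA. The seventh had 2 to 3 counts in chronic unlesioned libraries and passed the filter only through the lesioned group, so it is not counted. Among the 6 is a clone on the opposite strand, AK047301, which overlaps the start of *Pim1* and had a log2 fold change of 4.44, and without strand its reads cannot be told apart from those of the gene. For *Trib1*, 8 of 9 transcripts were higher after acute and 9 after chronic L-DOPA, and its 5′ part overlaps the opposite-strand clone AK053706 in the same way. The 3 long models of *Sik2* that span most of the gene were lower after acute L-DOPA (-0.39, -0.33 and -0.32). A model of its 5′ part, AK028526, picked here after its values were seen, was called higher close to the threshold, with 0.992 ± 0.096 and 1.31 ± 0.16 CPM on the acute sides (adjusted p = 0.0488 by edgeR's quasi-likelihood test (Benjamini-Hochberg)). The intronic clone AK036323, with 2 to 8 counts in acute unlesioned and 10 to 20 in acute lesioned libraries, passed the filter only through the group where it is high and is not counted. For *Sik3*, 1 of 12 models was called after chronic L-DOPA, AK017789 in the middle of the gene, with a log2 fold change of 0.39 (adjusted p = 0.0179, edgeR). Of the 5 models of *Nuak1*, 1 was called lower after acute and 3 after chronic L-DOPA.

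**Figure D4:**
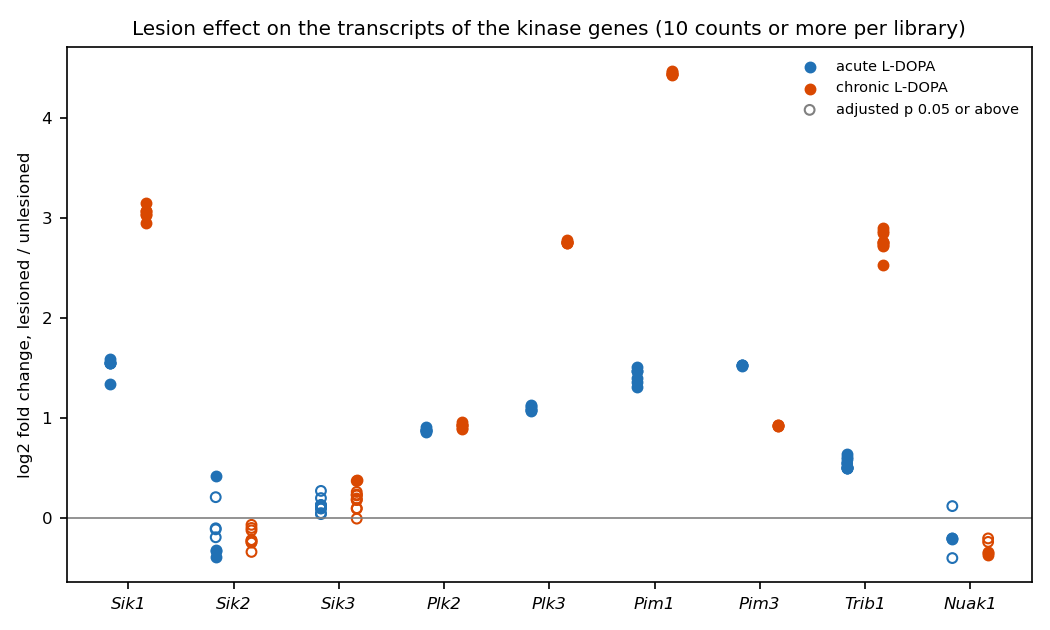
Log2 fold change of the lesioned over the unlesioned striatum (vertical axis) for the tested transcripts of each kinase gene with at least 10 counts in every library (a minimum chosen after seeing the data, which leaves out 1 of *Sik2* and 1 of *Pim1*), after acute (blue) and chronic (orange) L-DOPA; open circles have an adjusted p of 0.05 or above. The transcripts of *Sik1*, *Plk2*, *Plk3*, *Pim1*, *Pim3* and *Trib1* cluster by gene and treatment, while those of *Sik2* after acute L-DOPA spread from -0.39 to 0.42.

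The relatives, regulators and substrates of these kinases were read from a list of 42 genes, all of which were tested. After acute L-DOPA 7 were higher and 4 lower on the lesioned side, after chronic L-DOPA 6 and 3, and the interaction was called for 3, which compares with the 12.9%, 12% and 4.52% of all transcripts given above. Between the lesioned groups 10 were higher and 6 lower after chronic L-DOPA, beside 23.3% of all transcripts called. Between the unlesioned groups 2 were higher and none lower, beside 2.61%. Of the 14 AMPK-related kinases and their activators, *Mark2* alone was called between the sides, lower after acute L-DOPA (-0.26). Among 8 genes of SIK substrates and their partner CREB, *Crtc3* (0.30), *Hdac5* (0.27) and *Hdac7* (0.34) were higher after acute L-DOPA. In the chronic comparison *Hdac5* (0.41) was higher and *Crtc1* (-0.36) lower. CRTC proteins are the CREB coactivators that SIK holds in the cytoplasm, and class IIa histone deacetylases such as HDAC5 are retained there in the same way.

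Of the PIM relative and substrates, *Cdkn1a*, the cell cycle inhibitor p21, differed most between the sides. It had 6.26 ± 1.75 CPM on the unlesioned and 20.1 ± 0.73 CPM on the lesioned side after acute L-DOPA. After chronic L-DOPA it had 9.69 ± 3.39 and 43.2 ± 1.1 CPM, and the log2 fold changes were 1.69 (SE 0.14) and 2.16 (SE 0.20). The third PIM kinase gene, *Pim2*, was higher after chronic L-DOPA (0.52, adjusted p = 0.00533 by edgeR's quasi-likelihood test (Benjamini-Hochberg)), and neither its acute difference nor its interaction was called. *Plk5*, a PLK relative expressed in brain, went from 4.42 ± 0.49 to 1.40 ± 0.21 CPM after chronic L-DOPA (-1.66, SE 0.14) and had an interaction of -1.51 (SE 0.20).

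The relative of *Trib1*, *Trib2*, changed its direction between treatments. It went from 9.69 ± 0.55 to 4.75 ± 0.37 CPM on the acute sides (-1.02, SE 0.08) and from 8.54 ± 0.93 to 16.3 ± 2.6 CPM on the chronic sides (0.93, adjusted p = 0.000849 by edgeR's quasi-likelihood test (Benjamini-Hochberg)), with an interaction of 1.96 (SE 0.16). *Trib3*, the stress-induced member, had 0.428 ± 0.161 and 0.201 ± 0.024 CPM on the chronic sides (-1.08, SE 0.31, adjusted p = 0.0473 by edgeR). *Cebpb*, a C/EBP factor of the kind that TRIB1 brings to degradation, was higher after both treatments (1.14 and 0.75 on the log2 scale) and lower in the chronic than in the acute lesioned group (-0.61). Between the treatments, *Melk* was higher after chronic L-DOPA in the lesioned (1.38, SE 0.24, adjusted p = 0.00272) and unlesioned striatum (1.14, SE 0.26, adjusted p = 0.0455, both edgeR). Its acute and chronic means were low, 0.367 and 0.957 CPM on the lesioned and 0.443 and 0.969 CPM on the unlesioned side. *Rasgrf1*, a PLK2 substrate that activates Ras, was higher as well (0.64, SE 0.16, adjusted p = 0.0184 and 0.72, SE 0.16, adjusted p = 0.0412, both edgeR). Its chronic libraries spread widely, with 64.6 ± 19 CPM on the lesioned and 66.7 ± 19 CPM on the unlesioned side. Both unlesioned calls lay close to the threshold and were not rerun with libraries left out.

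For each member the 3 genes with the most similar pattern over the 12 libraries were found by Pearson's r of the log2 levels among 10610 other genes (10609 for *Sik2*) with at least 1 CPM. These values describe patterns that follow the groups, and with 4 groups of 3 many genes share them. Genes that overlap the member were left out, but neighbours were not screened for overlap with each other. *Pim1* was closest to *Creb3l1* (0.995), *Gpr19* and *Areg*, and *Trib1* to *Vegfa* (0.991), *Dnajb5* and *Pfkfb4*. *Plk3* was closest to *Gpr3* (0.992), *Ifrd1* and *Rgag4*, and *Sik1* to *Midn* (0.993), *Tpbg* and *Rheb*. *Pim3* was closest to the ERK phosphatase gene *Dusp6* (0.986), then to *Dph1* and *Ovca2*, and *Plk2* to the enkephalin gene *Penk* (0.981), *Arpc2* and *Sdr39u1*. *Sik2* and *Sik3* had looser partners, *Sik2* with *Pisd* (0.946) and *Sik3* with *Epb4.1l1* (0.907).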

How the data were processed

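RNA-seq libraries of 12 striatal samples were read in the 4 groups that the sample labels give. Per the paper's methods the authors used TruSeq libraries and a Genome Analyzer II, with reads mapped to mm9 by Genomatix software; the deposited values used here are raw read counts per transcript. The handling of strand and of reads with several positions is not given in the sources used here. Of the deposited columns, 48 with per-sample values (normalized expression and the columns of the comparison tables) were not used, nor were the authors' fold changes and p-values. Rows without a symbol (296 transcripts, 0.0485% of counts) were left out. Reads carry no molecular identifiers.

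edgeR 4.0.16 (R 4.3.3) was run on all transcripts with filterByExpr, TMM, glmQLFit and glmQLFTest, on the 6 libraries of a comparison or on all 12 for the interaction, with Benjamini-Hochberg adjustment over all transcripts tested. Levels are CPM of the TMM-scaled total. The script was tested on simulated data. With 3 libraries against 3, an exact permutation test cannot go below p = 0.1, so none was run. Within a treatment, the deviations of same-numbered libraries correlated over genes at 0.390 to 0.478 (acute) and 0.153 to 0.566 (chronic), and those of other-numbered libraries at -0.321 to -0.109 and -0.516 to 0.155. Across treatments, same-numbered libraries correlated at -0.163 to 0.249. The paper describes the unlesioned side as a control within each mouse, whereas the series text counts 12 mice. The pairing of same-numbered libraries therefore rests on these values, and the main tests did not use it. Alternatives were DESeq2 1.42.0 and its size factors, no filter, a single transcript per gene, the sum over transcripts, the RefSeq transcript, all 12 libraries, the replicate block and each library left out. The named genes are the 9 members, the 3 largest called changes per comparison of the related list, and 3 pattern neighbours each, of which some are not reported here; *Mark2*, *Crtc1*, *Crtc3*, *Hdac5*, *Hdac7*, *Pim2*, *Drd1a*, *Drd2*, *Adora2a*, *Tac1*, *Penk* and *Gfap* were named after their values were seen. The members and lists were chosen with earlier results of these data known.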

Additional observations from a re-analysis of the deposited data

Results flagged for a closer look

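The difference between the sides changed with repeated L-DOPA for 5 of the 9 kinase genes, by the interaction test on all 12 libraries. The log2 effect after chronic minus that after acute L-DOPA was 1.52 for *Sik1*, 1.64 for *Plk3*, 2.96 for *Pim1* and 2.22 for *Trib1*, all larger after chronic L-DOPA, and -0.60 for *Pim3*, smaller after chronic L-DOPA. With each library left out in turn, *Sik1* stayed between 1.48 and 1.57, *Plk3* between 1.503 and 1.788, *Pim1* between 2.77 and 3.14 and *Trib1* between 2.07 and 2.37, all called. *Pim3* stayed between -0.72 and -0.49 and was called in 2 of these 12 fits. The cause of these differences was not tested.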

How the results depend on the processing

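Of the 9 genes, the calls of *Sik1*, *Plk2*, *Plk3*, *Pim1* and *Pim3* between the sides held in all settings run, and those of *Sik2*, *Trib1* and *Nuak1* are limited as given with each gene. Over genes and settings, 108 values after acute L-DOPA kept their direction and side of the threshold and 18 lost the call, and after chronic L-DOPA 122 kept it and 4 lost it. The number of members called after acute L-DOPA was 5 to 7 with each library left out in turn, with 5 without acute unlesioned replicate 1 or acute lesioned replicate 2, and between the unlesioned groups it was 0 to 1. The number of transcripts called moved more. With each library left out in turn it ran from 9543 to 15329 (acute), 9137 to 14863 (chronic), 16025 to 36534 (lesioned groups), 66 to 14377 (unlesioned groups) and 3794 to 9536 (interaction). On a single transcript per gene, where fewer features are tested, 3135, 2663, 4911, 544 and 1053 were called. The fit on all 12 libraries called fewer after acute (11144) and more after chronic L-DOPA (22945), and between the unlesioned groups DESeq2 called 6278 and no filter gave 5821. The replicate block, which pairs the sides within a treatment, raised the calls from 16684 to 28240 (acute), from 15295 to 27506 (chronic) and from 5911 to 15876 (interaction) and changed no call of a member, but lowered the share of higher ones among all chronic calls from 64.0% to 54.2% and among interaction calls from 71.3% to 56.8%. Signs turned only for differences near 0 that were not called, *Nuak1* between the lesioned groups (0.00077 on a single transcript per gene, 0.0090 summed over transcripts, -0.031 to 0.018 with libraries left out), between the unlesioned groups *Sik2* (-0.044 to 0.126), *Plk3* (0.0074 on a single transcript per gene, -0.018 to 0.021 with libraries left out) and *Pim1* (-0.023 to 0.338), and *Plk2* in the interaction (-0.026 to 0.167). The related genes were not rerun under the alternatives. Where a call or a count moved, the cause was not tested. Depth limits *Pim1* on the unlesioned side, with 63 to 83 counts.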
